A study of Mus musculus with 17 samples.

Results

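The comparison set marrow cells carrying a retroviral vector for the microRNA cluster 99b/let-7e/125a against cells carrying the same vector without an insert, in the first of the study's 2 datasets (dataset A). Its arrays were chosen by their titles: 3 with the empty vector and 3 with the cluster vector, 6 of the 17 arrays of the series. Bone marrow came from C57Bl/6 mice 4 days after an injection of 5-fluorouracil at 150 mg/kg, which spares resting primitive cells, and both groups had this treatment. The cells were cultured in StemSpan medium with serum, Flt3 ligand, stem cell factor and interleukin-11, transduced with the MXW retroviral vector and grown for 7 days in all. Viable cells with the vector's green fluorescent marker (EGFP) were collected 5 days after the first transduction, so each sample was a mixed culture in which every cell type that took up the vector could carry it. The design text calls the samples independent biological triplicates, and the P-values here reflect only how far these samples scattered. Dataset A also held 2 miR-155 arrays from the same kind of culture, which shared in the estimate of the spread. In dataset B, 3 further arrays with each of the same vectors repeated the comparison.

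MicroRNAs are short RNAs that guide Argonaute proteins to messenger RNAs, chiefly through the seed at their 5′ end, and lower the stability or translation of those messages. The members of this cluster are expressed together in blood stem cells, and miR-125 in particular is known for effects on the survival and differentiation of haematopoietic cells in the mouse. In the marrow the neutrophil lineage makes its granules in order: primary (azurophil) granules with myeloperoxidase and elastase at the promyelocyte stage, then specific and gelatinase granules with lactoferrin and cathelicidin.

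The mature 5′ strands of the members named in the vector are shown because each carries a seed of its own, so that the vector can reach 3 sets of targets. The sequences are those of RefSeq for the mouse assembly GRCm38.p6, where the genes lie on the plus strand of chromosome 17 within 647 bases of each other (miR-99b-5p at 17830194 to 17830215, let-7e-5p at 17830366 to 17830387, miR-125a-5p at 17830817 to 17830840). Capitals mark the seed, bases 2 to 8.
mmu-miR-99b-5p: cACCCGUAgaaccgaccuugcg
mmu-let-7e-5p: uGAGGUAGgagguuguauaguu
mmu-miR-125a-5p: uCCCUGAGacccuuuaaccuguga
The 3 seeds differ from each other. The array carried 0 probes named for these microRNA genes, and their levels in the cells are not known from it.

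Levels are normalized probe intensities on a log2 scale, and differences are cluster minus empty vector on that scale. The number of arrays limits the precision. Between 36.6% and 38.7% of the probes were detected per array. Across the 10340 genes tested, the levels of pairs of arrays correlated at 0.988 to 0.990 within the empty-vector group, at 0.986 to 0.989 within the cluster group and at 0.984 to 0.990 between the groups. These correlations describe genes that share each array's scan, and none of the 6 arrays stood apart. The first principal component (27.8% of the variance) mixed the groups and the second (26.6%) separated them. One intensity column of the cluster group carries a repeated header, and its array is called the cluster array without a number. Values of the cluster arrays are given in the order array 1, array without a number, array 3.

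The markers of early neutrophil cells were bright on all 6 arrays: Mpo (myeloperoxidase), Elane (neutrophil elastase), Prtn3 and Ctsg lay between 13.76 and 14.39. Kit, the stem cell factor receptor, lay between 10.65 and 11.26, and Gata2, a progenitor transcription factor, between 9.44 and 9.67. Mast cell genes (Cpa3), macrophage genes (Csf1r, Adgre1) and the platelet gene Pf4 were detected on every array, while Flt3, Cd3e and Cdh5 were detected on 1 of the 6 arrays each and Col1a1 on 0. Pecam1, which marks endothelium and also many blood cells, was detected on all 6 arrays, at 7.83 to 8.73.

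With the cluster, 33 genes rose (0.319% of the 10340 tested) and 34 fell (0.329%), at a limma adjusted p under 0.05 that 0.648% of genes passed in all, and the cluster and empty-vector arrays did not overlap for any of the 67. Over all genes tested, 13.1% had groups that did not overlap and 7.88% had an unadjusted p under 0.05. The rises were led by Cited4, Catsperz, Rab34, Klk8 and Thy1. The falls were led by neutrophil granule proteins, stefins and chitinase-like proteins, and by the DNA-binding factor Arid3a. Of the rises 14, leaving out Cldn11, for which there is only a bound, and of the falls 22 were at least 2-fold. The median difference of all genes was 0.00, and the middle of the distribution was narrow, with the 10th percentile at -0.27 and the 90th at 0.27.

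**Figure D1:**
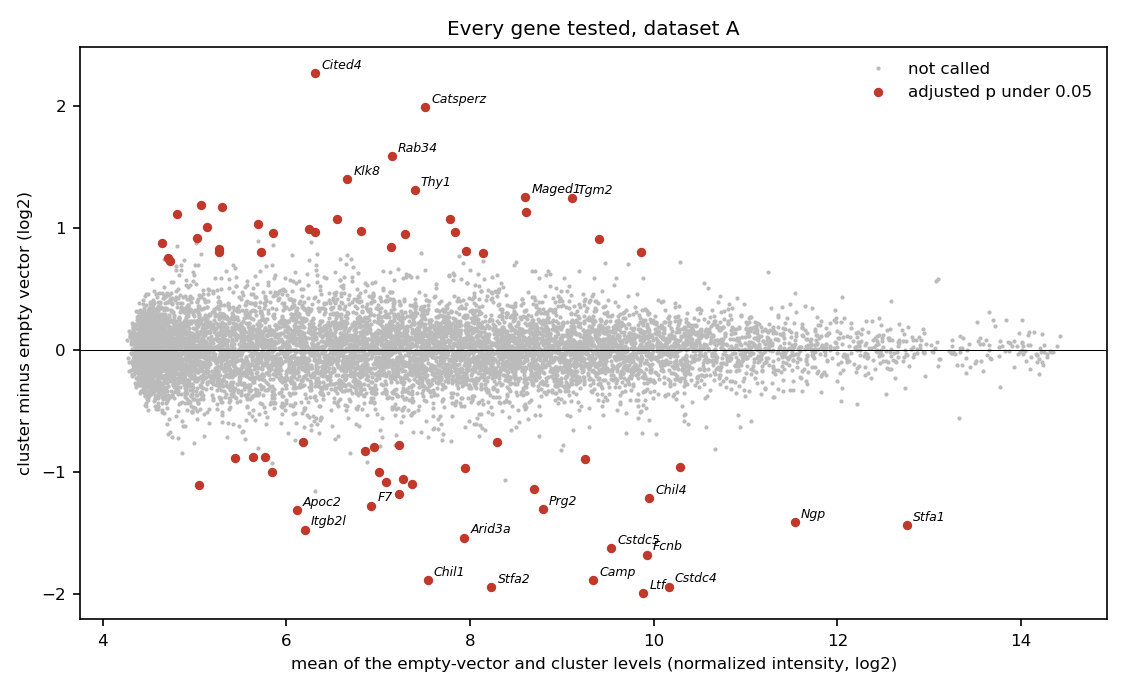
Difference between cluster and empty vector (log2, vertical axis) against the mean level of both groups (normalized intensity, log2, horizontal axis) for each of the 10340 genes tested in dataset A, grey where not called and red for the 67 with an adjusted p under 0.05. Rises reach 2.27 (Cited4) and falls reach -2.0 (Ltf), and genes beyond 1.2 in either direction carry their names.

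Cited4, a co-activator that binds CBP and p300, stood at 5.54, 4.94 and 5.06 on empty-vector arrays 1, 2 and 3 and at 7.68, 7.38 and 7.29 on the cluster arrays. The lowest cluster array lay well above the highest empty-vector array, and the difference of 2.27 ± 0.19 (SE, 3 arrays against 3) was a 4.83-fold rise (limma adjusted p = 1.31e-05). Without background correction the rise of Cited4 was 2.29-fold and still called (limma adjusted p = 0.000957). Of the 5 tested genes on a list of Cited proteins and their partners, Cited4 was the 1 called (0.648% of all genes tested were). Cited2, the other Cited gene tested, and the partners Crebbp (CBP), Ep300 (p300) and Hif1a had values between -0.18 and 0.03. Catsperz, an auxiliary subunit of the sperm calcium channel CatSper, read 6.33, 6.38 and 6.84 with the empty vector and 8.44, 8.50 and 8.58 with the cluster. This was a 3.97-fold rise (1.99 ± 0.18, limma adjusted p = 2.04e-05), and a further detected probe of Catsperz gave 1.48.

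Rab34, a small GTPase of the Golgi and of lysosome positioning, was at 6.43, 6.13 and 6.49 with the empty vector and at 7.95, 7.87 and 8.01 with the cluster. Its groups were tight and far apart, the rise was 3.01-fold (1.59 ± 0.16, limma adjusted p = 7.57e-05), and its other detected probes gave 1.13 and 1.22. Of 37 tested Rab GTPases, Rab34 was the 1 called (0.648% of all genes tested were), and the median of the list was 0.03. Klk8, a secreted serine protease, went from 5.80, 6.02 and 6.07 to 7.41, 7.48 and 7.21 (1.40 ± 0.16, limma adjusted p = 0.000247). Thy1, a surface protein anchored by a lipid tail, went from 6.53, 6.70 and 6.99 to 8.24, 8.11 and 7.81 (1.31 ± 0.18, limma adjusted p = 0.00148). Thy1 marks T cells, fibroblasts and early blood progenitors. Of the 10 tested genes on the stroma and endothelium list, which holds Thy1, 1 rose (Thy1) and 0 fell. On this list 2 had cluster arrays all above the empty-vector arrays, 2 had values below 0, and the median was 0.10. Over all genes tested, 0.319% rose, 6.41% had cluster arrays all above and 49.6% had values below 0. Per array, the members' median against their own empty-vector means was 0.08, 0.14 and 0.34 on the cluster arrays and between -0.06 and 0.08 on the empty-vector arrays. The other gene of that list without overlap, Pecam1, had a value of 0.48 ± 0.17 (limma adjusted p = 0.408), while Cd3e and Col1a1 were detected on 0 cluster arrays. The part of other cell types in the Thy1 rise was not tested.

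Of 4 tested genes whose symbol begins with Mage, for proteins that act with E3 ubiquitin ligases, 3 rose (0.319% of all genes tested did). Maged1 read 7.56, 8.25 and 8.10 with the empty vector and 9.44, 9.05 and 9.19 with the cluster, a 2.39-fold rise (limma adjusted p = 0.0038). Magee1 rose by 1.08 ± 0.22 (limma adjusted p = 0.030) and Maged2 by 0.97 ± 0.20 (limma adjusted p = 0.042). Mageh1, detected on 2 empty-vector arrays and 1 cluster array, had a value of -0.27 ± 0.19 (limma adjusted p = 0.821). These genes were singled out after their values were seen, so their count is a description. Maged1 kept its call whichever array was left out, Magee1 with 1 of the 6 left out and Maged2 with none, where the limma adjusted p reached 0.0259, 0.147 and 0.213.

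Other rises were in enzymes, signalling proteins and chromatin proteins. Tgm2, the transglutaminase that cross-links proteins, stood at 9.20, 8.16 and 8.10 with the empty vector and at 9.79, 9.62 and 9.78 with the cluster. Empty-vector array 1 was the high one for Tgm2, its call (1.24 ± 0.25, limma adjusted p = 0.0342) ended with any of the other 5 arrays left out (adjusted p 0.0964 to 0.223), and a second detected probe of Tgm2 gave 0.05. Hmgn3, a nucleosome-binding protein, went from 8.12, 7.89 and 8.14 to 9.10, 9.30 and 9.14, and its other probe gave 0.97 beside 1.13. Bcat1, the cytosolic enzyme of branched-chain amino acid transfer, rose by 1.07 ± 0.20 (limma adjusted p = 0.0162), and its call ended without empty-vector array 2 (0.0973), the cluster array without a number (0.0541) or cluster array 3 (0.0918). H1f10, a linker histone, rose by 0.99, while a second detected probe of H1f10 had the opposite sign. Eng, the TGF-beta co-receptor endoglin, rose by 0.84 ± 0.17 (limma adjusted p = 0.0276).

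The remaining rises spread over metabolism, secretion and the cell surface. Glyat, which joins glycine to acyl groups, read 4.67, 4.67 and 4.79 and then 6.13, 5.77 and 5.75, and Aif1l, a relative of an actin-binding protein, was detected on 1 of 3 empty-vector arrays and 3 of 3 cluster arrays. Ambp (the precursor of alpha-1-microglobulin and bikunin), Fah (the last enzyme of tyrosine breakdown), Slc13a2 (a dicarboxylate transporter), Fkbp11 (a folding enzyme of the endoplasmic reticulum), Mboat2 (a lysophospholipid acyltransferase), Golm2 and Dmkn (dermokine) rose by 0.80 to 0.97. Il27ra, the interleukin-27 receptor, rose by 0.96 and Fcmr, the Fc receptor for IgM, by 0.80. Arhgef25, a guanine nucleotide exchange factor, rose by 1.03 and the kinase Stk39 by 1.01, while Dennd2a, Tmem176a and the ciliary protein Tmem237 rose by 0.80 to 0.81. Arhgef25 had 2 further detected probes, of which 1 had the opposite sign.

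For 4 of the rises the probe was not detected on any empty-vector array, so that the fold is a bound against the lowest detected signal. Cldn11, a claudin of tight junctions, read 4.29, 4.25 and 4.21 with the empty vector and 5.32, 5.51 and 5.26 with the cluster, at least 1.76-fold higher (limma adjusted p = 0.00147). Sox5 was at least 1.46-fold higher, the endoplasmic reticulum retention receptor Kdelr3 at least 1.45-fold and the receptor-sorting protein Gprasp2 at least 1.45-fold (limma adjusted p between 0.042 and 0.0482). In all, 30 tested genes were detected on 3 cluster arrays and 0 empty-vector arrays, of which these 4 were called, and 39 on 0 and 3, of which 0 were called. Among the 39 were Arid3b, a close relative of Arid3a (-0.51 ± 0.16, limma adjusted p = 0.287), and the apolipoprotein gene Apoc1 (-0.71 ± 0.19, limma adjusted p = 0.124).

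**Figure D2:**
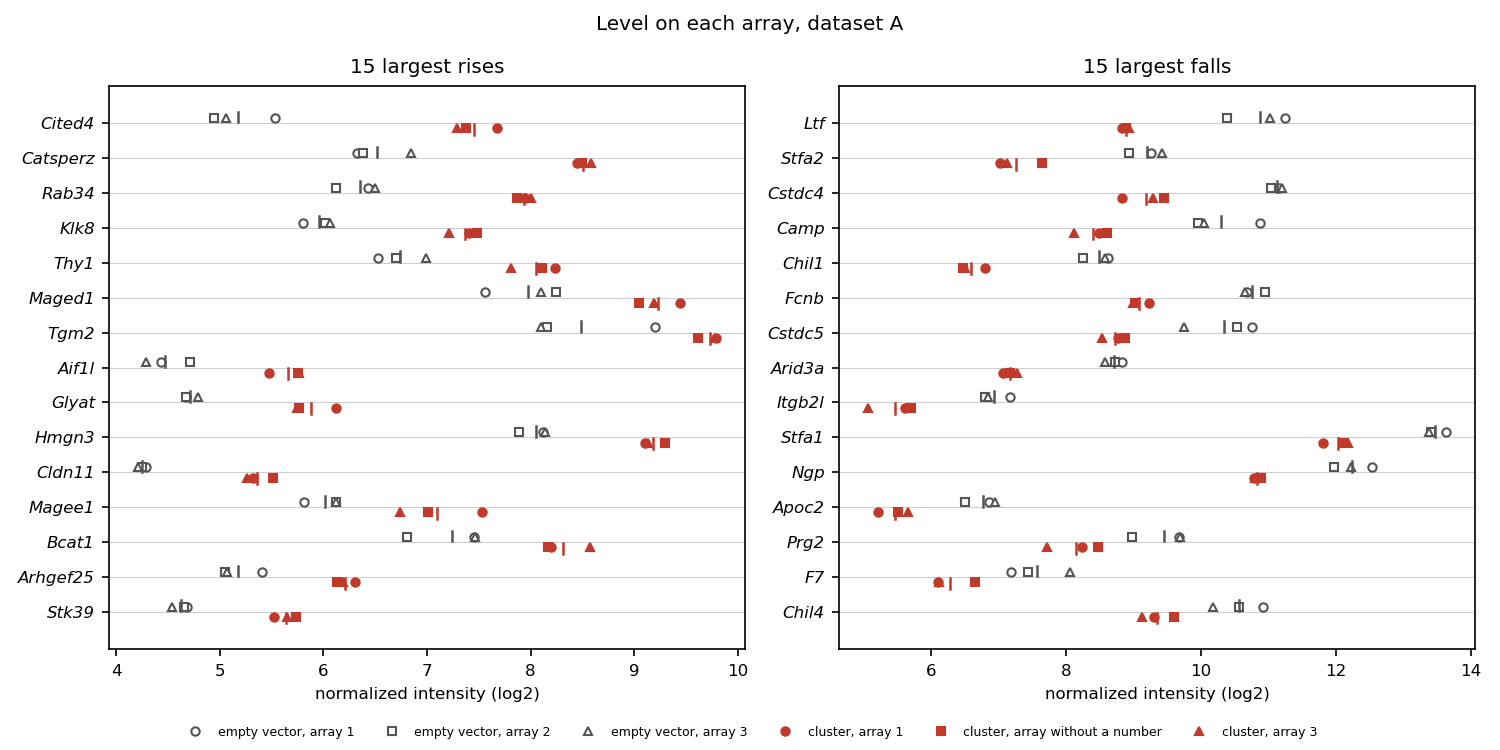
Normalized intensity (log2, horizontal axis) on each array of dataset A for the 15 largest called rises (left) and falls (right), with open grey symbols for empty-vector arrays and red symbols for cluster arrays, a shape per array and a vertical tick at each group mean of 3. No gene has overlapping groups, and Tgm2 shows a single high empty-vector array.

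Late granule genes of neutrophils were among the falls. Of 25 tested genes of the specific and gelatinase granules, 5 fell (Ltf, Camp, Chil1, Itgb2l and Ngp) and 0 rose. In 12 the cluster arrays lay all below the empty-vector arrays and in 1 all above. Over all genes tested, 0.329% fell, 6.65% had cluster arrays all below and 6.41% all above. The median of the list was -0.28 against 0.00 for all genes. Ltf, lactoferrin, stood at 11.24, 10.38 and 11.02 with the empty vector and at 8.84, 8.89 and 8.93 with the cluster. The cluster arrays lay close together and below every empty-vector array, a 3.99-fold fall (limma adjusted p = 8.73e-05), and the second detected probe of Ltf gave -0.56. Camp, the cathelicidin antimicrobial peptide, went from 10.87, 9.95 and 10.05 to 8.48, 8.60 and 8.11 (-1.89 ± 0.23, limma adjusted p = 0.000299). Ngp, neutrophilic granule protein, went from 12.54, 11.97 and 12.22 to 10.79, 10.88 and 10.81 (-1.42 ± 0.18, limma adjusted p = 0.000552). In mixed cultures, fewer cells of a type and less RNA per cell cannot be told apart.

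Members of the same granules differed in size of effect. Itgb2l, an integrin subunit of neutrophils, fell by 1.47 ± 0.20 on the log2 scale (limma adjusted p = 0.00107). Cd177, a neutrophil surface protein, had a value of -0.84 ± 0.23 (limma adjusted p = 0.141) and Lcn2, the iron-siderophore-binding lipocalin, one of -0.44 ± 0.17 (limma adjusted p = 0.450). Pglyrp1, a peptidoglycan-binding protein, was at 11.97, 11.83 and 11.62 and then at 11.68, 11.61 and 11.29 (-0.28 ± 0.17, limma adjusted p = 0.777). The range of the 25 values ran from -2.0 to 0.58.

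The median of the primary granule genes was 0.02, against 0.00 for all genes. Of 15 tested, 1 fell (0.329% of all genes tested did) and 0 rose. That 1 was Fcnb, ficolin B, a lectin of the innate immune system, at 10.68, 10.96 and 10.66 with the empty vector and 9.24, 9.02 and 9.0 with the cluster (3.20-fold lower, limma adjusted p = 4.03e-05). A second detected probe of Fcnb gave -1.55. Beside it the difference was -0.14 ± 0.16 for Mpo and 0.04 ± 0.16 for Elane, neither called (limma adjusted p = 0.935 and 0.992). Nkg7 had the highest value of this list, 0.64 ± 0.16 (limma adjusted p = 0.120).

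Stefins are small inhibitors of cysteine proteases that neutrophil precursors express highly in mice. They held the lowest median of the lists, -1.44 over 7 tested members, of which 4 fell (0.329% of all genes tested did) and 0 rose. Stfa1 read 13.63, 13.41 and 13.38 with the empty vector and 11.81, 12.12 and 12.18 with the cluster. Cstdc4 read 11.16, 11.04 and 11.20 and then 8.83, 9.45 and 9.29 (3.84-fold lower, limma adjusted p = 8.76e-05). Stfa2 fell by 1.95 on the log2 scale, Cstdc5 fell by 1.62, and the call of Cstdc5 ended without empty-vector array 1 (limma adjusted p = 0.0518) or cluster array 3 (0.0524). These genes are near-identical copies, and it is uncertain which copy a given probe reports. Cstb, the stefin outside this copy cluster, had a value of 0.56, with all cluster arrays above the empty-vector arrays.

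Chitinase-like proteins, which bind chitin-like sugars without cleaving them, fell in part. Chil1 read 8.62, 8.25 and 8.58 with the empty vector and 6.80, 6.47 and 6.51 with the cluster (3.71-fold lower, limma adjusted p = 4.03e-05). Chil4 went from 10.92, 10.57 and 10.19 to 9.31, 9.60 and 9.13, and its call (limma adjusted p = 0.00781) ended without empty-vector array 1 (0.0518) or cluster array 3 (0.0531). Chil3, a close copy of Chil4, had a value of -0.81 ± 0.20 that was not called (limma adjusted p = 0.108). The 2 other detected probes of Chil3 gave -0.82 and -1.30.

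Of 26 genes of mature neutrophils, 2 fell (0.329% of all genes tested did) and 0 rose, with a median of -0.26. Pilra, an inhibitory receptor, fell by 1.00 and Mcemp1 by 0.97, calls that held only without empty-vector array 2 for Pilra, and only without empty-vector array 1 or cluster array 1 for Mcemp1 (limma adjusted p up to 0.256 and 0.0724 otherwise). The formyl peptide receptor Fpr2 had a value of -1.06 ± 0.32 and the chemokine receptor Cxcr2 one of 0.71 ± 0.18, neither called (limma adjusted p = 0.219 and 0.104). S100a8, a subunit of calprotectin, lay between 13.61 and 14.30 on all 6 arrays, and its partner S100a9 read 13.63, 13.59 and 13.60 against 12.95, 13.18 and 13.02 without passing (limma adjusted p = 0.179). Cebpe, the transcription factor that mouse neutrophils need to make specific granules, read 10.58, 10.84 and 10.40 against 10.09, 10.23 and 9.92 (-0.53 ± 0.17, limma adjusted p = 0.288).

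Promoters are shown for 3 of the granule genes that fell together, from RefSeq for GRCm38.p6, in a window from 250 bases before to 50 bases after the start of the gene. Capitals mark matches, on either strand, to TTGCNNAA, a loose pattern for sites of the C/EBP family, to which Cebpe belongs. Ltf lies at chr9:111019042-111019341 (plus strand), Ngp at chr9:110419558-110419857 (plus strand) and Fcnb at chr2:28084829-28085128 (minus strand).
Ltf: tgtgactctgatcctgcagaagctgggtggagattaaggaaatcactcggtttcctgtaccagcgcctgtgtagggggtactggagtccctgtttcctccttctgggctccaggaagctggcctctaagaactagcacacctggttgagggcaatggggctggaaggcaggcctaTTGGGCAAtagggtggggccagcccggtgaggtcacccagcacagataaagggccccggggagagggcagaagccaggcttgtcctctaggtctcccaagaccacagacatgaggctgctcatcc
Ngp: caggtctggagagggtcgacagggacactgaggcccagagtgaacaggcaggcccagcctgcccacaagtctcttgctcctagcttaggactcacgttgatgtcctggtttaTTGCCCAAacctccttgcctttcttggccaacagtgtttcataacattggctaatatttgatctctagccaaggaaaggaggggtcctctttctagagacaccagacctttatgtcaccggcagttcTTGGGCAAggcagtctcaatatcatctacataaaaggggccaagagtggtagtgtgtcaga
Fcnb: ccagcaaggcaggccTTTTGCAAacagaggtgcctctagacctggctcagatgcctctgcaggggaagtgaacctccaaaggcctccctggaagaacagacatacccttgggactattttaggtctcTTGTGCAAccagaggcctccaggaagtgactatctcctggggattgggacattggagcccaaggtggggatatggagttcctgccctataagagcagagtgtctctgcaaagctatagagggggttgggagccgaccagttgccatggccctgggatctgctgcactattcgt
The Ltf match begins 75 bases before the start, those of Ngp 138 and 11 bases before and those of Fcnb 235 and 123 bases before. This string was found in 10.8% of the promoters of all 27025 genes with one, in 7 of 27 falls (also Chil4, Cstdc5, Pilra and Stfa1) and in 3 of 28 rises. The 3 promoters shown all hold a match, which not every granule gene that fell does. The promoter of Itgb2l held none, and Camp and Chil1 were not among the genes with a match. GAGGAA, the core of sites for PU.1 and other ETS factors, was in 28.3% of all promoters, 15 of the 27 falls and 11 of the 28 rises. CCGCCC, the GC box of SP1, was in 35.9% of all promoters, 3 of the 27 falls and 14 of the 28 rises. Both strands were searched, matches of different strings may overlap, and the strings were chosen after the values were seen, so the counts are a description without a test.

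**Figure D3:**
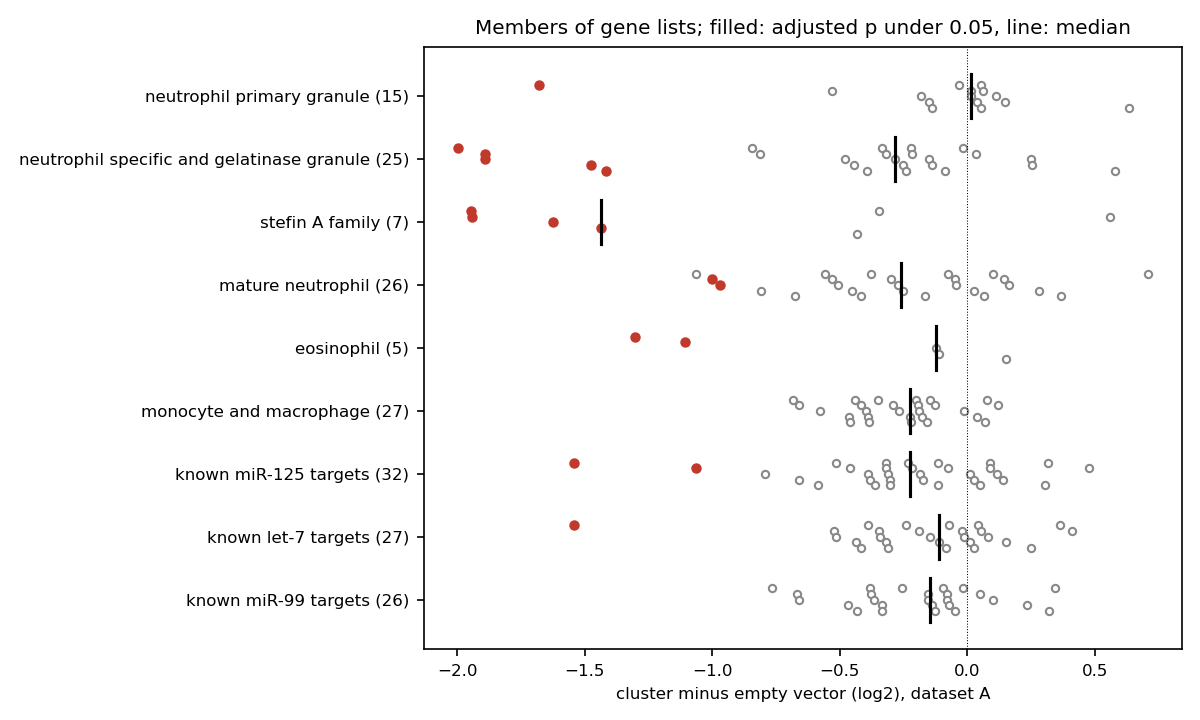
Difference between cluster and empty vector (log2, horizontal axis) for each tested member of 9 gene lists, with the number of members in brackets, filled red where the adjusted p is under 0.05 and with a black line at the list's median. The specific granule and stefin members reach furthest to the left, while all primary granule members but Fcnb lie between -0.53 and 0.64.

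Of 5 tested eosinophil genes, 2 fell (Prg2 and Prg3) and 0 rose, where 0.329% of all genes tested fell. Prg2, the major basic protein, read 9.67, 8.98 and 9.69 with the empty vector and 8.23, 8.47 and 7.72 with the cluster (-1.30 ± 0.24, limma adjusted p = 0.0143), and its call ended without empty-vector array 1 (0.0857), empty-vector array 3 (0.132) or cluster array 3 (0.0857). Prg3, its homologue, was detected on 3 empty-vector arrays and 1 cluster array and fell by 1.11 ± 0.19 on the log2 scale, a call that ended without empty-vector array 1 (0.0652), the cluster array without a number (0.0604) or cluster array 3 (0.0539). Epx, eosinophil peroxidase, was detected on 2 empty-vector arrays and 0 cluster arrays, with a value of -0.12 ± 0.19 that was not called (limma adjusted p = 0.963). The median of the list was -0.12, and it was -0.72 without empty-vector array 3 and -0.53 without cluster array 3.

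No monocyte or macrophage gene was called among 27 tested. Values below 0 were found for 23 of them, against 49.6% of all genes tested, and the median was -0.23. Per array, the members' median against their own empty-vector means was -0.23, -0.09 and -0.36 on the cluster arrays and between -0.03 and 0.05 on the empty-vector arrays. Without the cluster array without a number the median was -0.35. Adgre1, the macrophage marker F4/80, had a value of -0.44 ± 0.18 (limma adjusted p = 0.518), and Csf1r, the receptor for macrophage growth factor, one of -0.01 ± 0.16. Single genes of myeloid recognition and antigen presentation did fall. These were Clec7a (dectin-1, the beta-glucan receptor, by 0.80), the costimulatory ligand Cd86 (by 0.76), the lysosomal transporter Slc15a3 (by 0.83) and Mefv, which encodes pyrin (by 0.88). The limma adjusted p of these 4 lay between 0.042 and 0.0497, and for Clec7a, Cd86 and Slc15a3 it rose past 0.05 whichever array was left out, as it did for Mefv except without cluster array 1. Of the other 2 detected probes of Cd86, 1 had the opposite sign.

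Other falls were in regulators, adhesion proteins and enzymes. E2f2, an activator of cell cycle genes, fell by 1.14 ± 0.21 (limma adjusted p = 0.013), while 0 of 36 DNA replication genes and 0 of 25 mitosis genes were called, with medians of 0.02 and 0.01. The call of E2f2 ended without empty-vector array 1 (0.0845), empty-vector array 3 (0.125), cluster array 1 (0.0628) or the cluster array without a number (0.0802). Apoc2, the cofactor of lipoprotein lipase, went from 6.86, 6.50 and 6.95 to 5.20, 5.51 and 5.66 (-1.31 ± 0.19, limma adjusted p = 0.00148), and its other detected probe gave -0.04. F7, coagulation factor VII, went from 7.19, 7.44 and 8.06 to 6.10, 6.64 and 6.11, and its call (limma adjusted p = 0.00828) ended without empty-vector array 3 (0.0624) or cluster array 3 (0.0539). Ceacam2, an adhesion molecule, fell by 1.18, Mogat2, which builds diacylglycerol, by 1.08 and Gpx3, the secreted glutathione peroxidase, by 1.10. Septin5, Nrm (a nuclear envelope protein), Mtus1, Jaml, Gapt, the inhibitory receptor Btla and the chromatin organizer Satb1 fell by 0.76 to 1.01.

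Known targets of the vector's microRNAs, taken from a list written with earlier results of these data known, were measured next. Of 32 tested miR-125 targets, 2 fell and 0 rose, 10 had cluster arrays all below the empty-vector arrays and 0 all above, and the median was -0.22. Over all genes tested, 0.329% fell and 0.319% rose, 6.65% had cluster arrays all below and 6.41% all above. Arid3a, which is also on the let-7 list, read 8.82, 8.72 and 8.58 with the empty vector and 7.06, 7.17 and 7.27 with the cluster, a 2.91-fold fall (limma adjusted p = 0.0011) that was called whichever array was left out. Abtb1 read 7.55, 8.02 and 7.83 and then 7.33, 6.67 and 6.22, with cluster array 1 close to empty-vector array 1. Its call (-1.06 ± 0.23, limma adjusted p = 0.0472) held only without cluster array 1 and otherwise reached adjusted p values of 0.0708 to 0.215.

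Further miR-125 targets had negative values that missed the threshold. Trp53inp1, a p53-induced protein of autophagy, was at -0.79 ± 0.21 (limma adjusted p = 0.132) and the kinase Map3k11 at -0.66 ± 0.17 (limma adjusted p = 0.108). Bak1, a pro-apoptotic member of the BCL2 family and one of the best known miR-125 targets, was at 5.89, 6.32 and 5.71 and then at 5.90, 6.73 and 6.20 (0.30 ± 0.22, limma adjusted p = 0.836), so its groups overlapped. In dataset B the value of Bak1 was -0.75 ± 0.34, not called (limma adjusted p = 0.512), and its groups overlapped there too. Without background correction the median of the miR-125 list in dataset A was -0.10.

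Of 27 tested let-7 targets, 1 fell (Arid3a) and 0 rose, where 0.329% of all genes tested fell, and the median was -0.11. E2f5 had a value of -0.52 ± 0.20 and the RNA-binding protein Igf2bp3 one of -0.44 ± 0.17, neither called (limma adjusted p = 0.453 and 0.485), and the fetal factors Hmga2 and Lin28b were on the array but not detected on enough arrays to be tested. Of 26 tested miR-99 targets, 0 were called, 21 had values below 0 (49.6% of all genes tested did) and the median was -0.15. Among them Mtor, the growth kinase, read 7.70, 7.85 and 7.75 against 7.39, 7.12 and 7.65 (-0.38 ± 0.17, limma adjusted p = 0.595), and Igf1r, the receptor for insulin-like growth factor, had a value of -0.33 ± 0.18 (limma adjusted p = 0.733). Ctdspl and Ttc39a stood at -0.66 ± 0.20 and -0.77 ± 0.21 (limma adjusted p = 0.231 and 0.142). Some lists that are not of targets lay as low. Values below 0 were found for 17 of 20 microRNA machinery genes (median -0.16) and 21 of 27 lysosome genes (-0.13). For glycolysis it was 6 of 19 (0.07). Median scaling in place of quantiles moved the median of all genes to -0.07 and that of the miR-125 list to -0.29. In dataset B the median was -0.05 for the miR-125 list, -0.11 for let-7 and -0.06 for miR-99, against 0.02 for all genes.

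Most other programmes of these cells held no called gene. Of 21 stem and progenitor genes, 19 mast cell and basophil genes, 13 erythroid genes and 15 megakaryocyte genes, 0 were called, with medians between -0.04 and 0.07. Of 26 apoptosis regulators, 21 p53 targets, 25 interferon response genes, 33 ribosome biogenesis and MYC target genes and 48 cytosolic ribosomal protein genes, 0 were called too. By an unadjusted p under 0.05, the erythroid list had 3 higher and 0 lower, the megakaryocyte list 2 and 0, the mast cell and basophil list 0 and 2, and the stem and progenitor list 1 and 1. It was 1 and 1 for the interferon genes, 0 and 1 for the p53 targets and for the ribosomal proteins, and 0 and 0 for the apoptosis and ribosome biogenesis lists. Over all 10340 genes tested, 416 were higher and 399 lower at this threshold, 7.88% in all. The 3 erythroid genes were the erythropoietin receptor Epor (0.39 ± 0.16) and the beta-globin genes Hbb-bs (0.60 ± 0.17) and Hbb-bt (0.58 ± 0.18), each with all cluster arrays above the empty-vector arrays (limma adjusted p = 0.494, 0.158 and 0.271). Over all genes tested, 6.41% had cluster arrays all above. The globin genes are near-identical copies and may share a signal. Cpa3, the mast cell carboxypeptidase, had a value of -0.61 ± 0.18 (limma adjusted p = 0.217).

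The number of calls depended on single arrays. Leaving out an empty-vector array left 36 (array 1), 43 (array 2) or 33 (array 3). Leaving out a cluster array left 45 (array 1), 30 (the one without a number) or 35 (array 3). A total of 24 genes, 11 rises and 13 falls, passed in each of these 6 fits, and the others missed the threshold in at least 1. Those were Cited4, Catsperz, Rab34, Klk8, Thy1, Maged1, Aif1l, Glyat, Hmgn3, Cldn11 and Arhgef25 among the rises, and Ltf, Stfa2, Cstdc4, Camp, Chil1, Fcnb, Arid3a, Itgb2l, Stfa1, Ngp, Apoc2, Ceacam2 and Mogat2 among the falls. Under all 19 alternatives 6 were called: Cited4, Catsperz, Rab34, Fcnb, Chil1 and Cstdc4. For 10 of the 67 the fold was smaller by over 1.5 times without background correction, among them Cited4, Aif1l, Glyat, Cldn11, Stk39, Itgb2l and Apoc2. Without that correction 35 of the 67 were still called. Among the 24 genes above, Aif1l, Glyat and Cldn11 then lost their calls (limma adjusted p = 0.0919, 0.0890 and 0.0600).

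**Figure D4:**
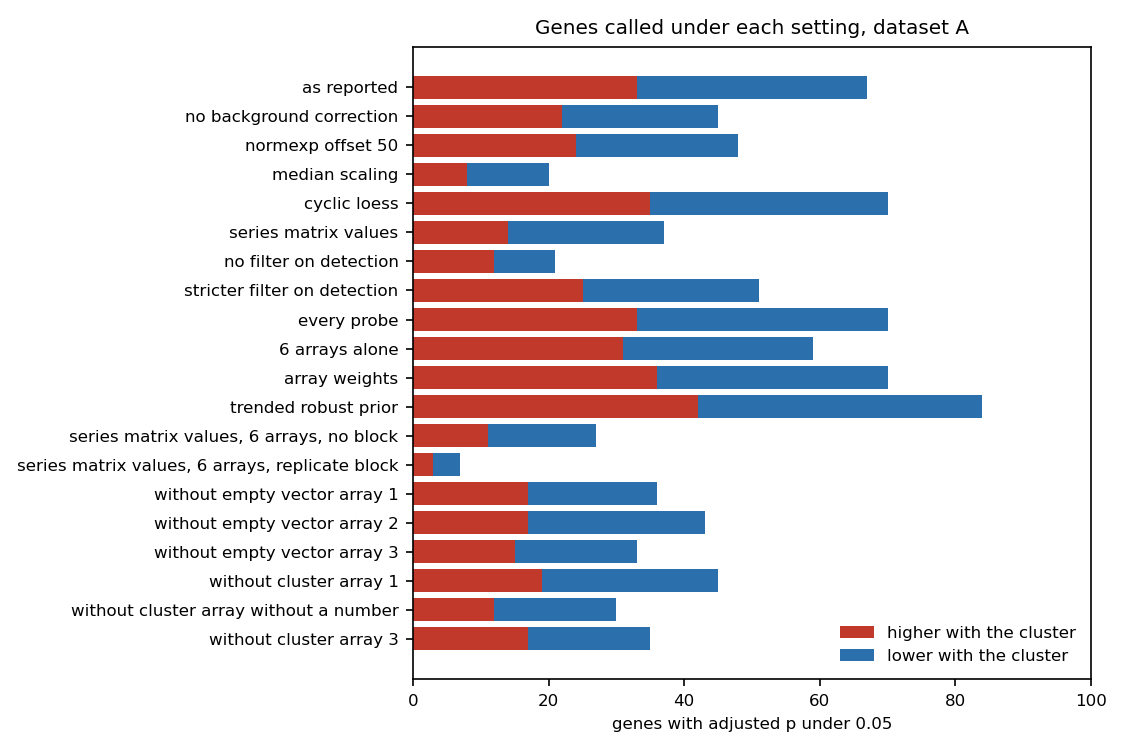
Number of genes with an adjusted p under 0.05 in dataset A (horizontal axis), split into genes higher (red) and lower (blue) with the cluster, for the analysis as reported and for each alternative (vertical axis). The count of 67 falls to 20 with median scaling and to 7 with series matrix values and the replicate number as a block, and reaches 84 with a trended robust prior.

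Without pairing, the same comparison on the other arrays, dataset B, gave 1 called gene of 9430 (0.0106%), Arid3a. There 9.72% had an unadjusted p under 0.05. A fit with the array numbers as pairs, which also left out the miR-125a arrays of dataset B, called 0. The part of each of these changes was not tested. Of the 33 rises of dataset A, 32 were tested there, 29 had positive values, and for 19 the cluster arrays lay all above the empty-vector arrays, where 10.1% of all genes of dataset B did so. Of the 34 falls, all were tested, 28 had negative values, and for 5 the cluster arrays lay all below, where 5.92% of all genes did so. Counted by array number, 24 of the 32 rises were higher in all 3 pairs (20.3% of all genes were) and 16 of the 34 falls were lower in all 3 (14.5% of all genes), 11 of the 16 with groups that overlapped. The genes were chosen by their values in dataset A alone, a choice that by itself favours larger values there than in dataset B. The values were smaller in dataset B for 31 of the 32 rises (median 0.44 against 0.98) and for 33 of the 34 falls (median -0.36 against -1.12). A test of the difference itself, the interaction over 12 arrays without pairs, called 0 of 8953 genes (limma, lowest adjusted p = 0.853). In it 493 genes had an unadjusted p under 0.05 (5.51%).

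**Figure D5:**
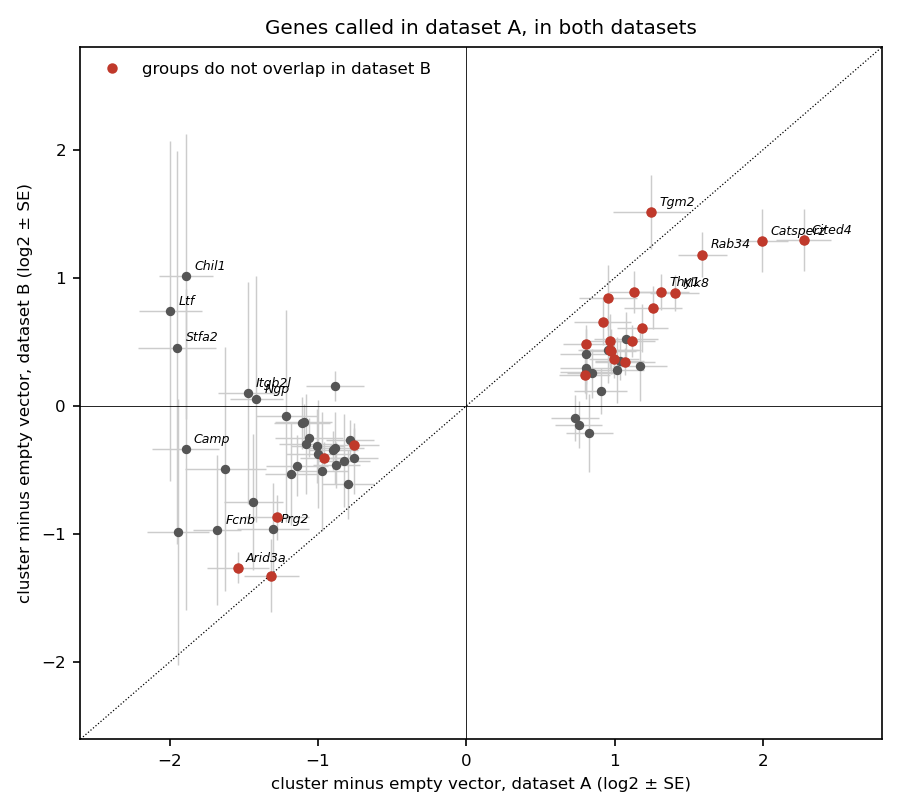
Difference between cluster and empty vector in dataset B (log2 ± SE, vertical axis) against that in dataset A (log2 ± SE, horizontal axis) for the 66 genes called in dataset A and tested in both, red where the groups of dataset B do not overlap, with a dotted line of equality. Cited4, Catsperz, Rab34 and Tgm2 lie high in both datasets and Arid3a low in both, while Ltf, Chil1 and Stfa2 lie above 0 in dataset B with long error bars.

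Arid3a read 8.56, 8.37 and 8.58 on empty-vector arrays 4, 5 and 6 of dataset B and 7.16, 7.30 and 7.25 on cluster arrays 4, 5 and 6. The groups were again far apart and the difference was -1.26 ± 0.12 (limma adjusted p = 0.0067). With the array numbers as pairs and without the miR-125a arrays, Arid3a was not called (limma adjusted p = 0.138). Nor was it called without empty-vector array 4 (0.0677), cluster array 4 (0.0782) or cluster array 6 (0.0634). Cited4 read 5.50, 5.36 and 4.68 there and then 6.59, 6.25 and 6.58 (1.29 ± 0.24, limma adjusted p = 0.154). Rab34 read 6.34, 5.62 and 6.03 and then 7.21, 7.16 and 7.16 (1.18 ± 0.18, limma adjusted p = 0.123). For both genes the groups did not overlap, nor did they for Catsperz, Klk8, Thy1, Maged1 and Hmgn3. Tgm2, fragile in dataset A, went from 6.97, 6.54 and 6.46 to 7.96, 8.41 and 8.12 in dataset B (1.51 ± 0.29, limma adjusted p = 0.154).

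The granule genes varied among the arrays of dataset B. There the median of the specific and gelatinase granule list was 0.11 and that of the stefins -0.17. It was -0.05 for mature neutrophil genes and -0.12 for monocyte and macrophage genes, against 0.02 for all genes. Ltf read 8.88, 8.12 and 7.59 with the empty vector and 7.80, 12.21 and 6.80 with the cluster, so cluster array 5 lay far above all others and the groups overlapped (0.74 ± 1.33, limma adjusted p = 0.905). Camp read 8.99, 8.39 and 7.77 and then 7.16, 10.79 and 6.18, with the same array high. Fcnb went from 8.68, 9.57 and 8.26 to 7.39, 9.17 and 7.04, where array 5 was the highest within each group. The difference between the datasets was -2.75 for Ltf and -0.75 for Fcnb, neither called (limma adjusted p = 0.871 and 0.891).

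The miR-155 arrays of dataset A were set against the same 3 empty-vector arrays, so that their values share controls with those above, and no overlap of calls is drawn from them. With miR-155, 107 genes were called (1.03% of those tested). Ltf had a value of -2.43 with miR-155 and -2.0 with the cluster, Cstdc4 -3.05 and -1.94, Camp -1.58 and -1.89, and Fcnb -1.61 and -1.68. For Cited4 the values were 0.21 with miR-155 and 2.27 with the cluster, and for Arid3a -0.67 and -1.54, where those of miR-155 were not called (limma adjusted p = 0.852 and 0.299). Rab34 stood at -1.07 with miR-155 (limma adjusted p = 0.00784) and at 1.59 with the cluster.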

How the data were processed

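Messenger RNA from marrow cells was measured on 17 single-colour Illumina mouse arrays of 45281 probes. The deposited intensity of a probe is its averaged bead signal, written by GenomeStudio (version not given) per the submitters' processing notes and not yet normalized. The detection p-value of each probe was deposited beside them, per the file headers. The log2 values of the series matrix were deposited by the authors with their making not given in the sources used here. They served as an alternative.

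Groups came from the sample titles. With R 4.3.3 and limma 3.58.1, background was corrected (normexp with an offset of 16, negative controls derived from the detection p-values) and quantiles were normalized within each dataset. Probes were named through the platform annotation (34885 with 1 symbol, 18 with several, 10378 with none), and 34807 gene IDs matched the RefSeq gene list of GRCm38.p6, used for names only. The brightest probe stood for each gene and was tested where detected (p under 0.05) on at least 2 arrays of dataset A or 3 of dataset B. The 8 arrays of dataset A shared a single limma model with eBayes, as did those of dataset B, and Benjamini-Hochberg adjusted p under 0.05 was called. A bound on a fold is taken against the higher of an array's lowest detected signal and the probe's own signal. The fit was tested on simulated data.

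In dataset B the deviations of same-numbered empty-vector and cluster arrays correlated at 0.14, 0.24 and 0.28. The numbers were therefore taken as pairs in an alternative fit and in counts by array number, from the data and not from the labels. All other standard errors and adjusted p-values of dataset B, and the interaction, come from fits without pairs. The members and the 36 lists were chosen with earlier results of these data known. By a written rule any called gene could be named, with values per array for the 15 largest rises and falls, and up to 4 called members per list, or 2 uncalled ones of largest difference. Uncalled genes outside that rule (among them Bak1, Cebpe, Mtor, Lcn2 and Mageh1) were named after their values were seen. Alternatives changed the background correction, normalization, filter, probe choice, arrays and spread.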

Additional observations from a re-analysis of the deposited data

How the results depend on the processing

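The 67 called genes kept their direction in each alternative that measured them. Their groups did not overlap and the alternatives reused the same arrays, so this outcome was nearly fixed in advance. The count of 67 called genes in dataset A was 20 with median scaling, 21 with no filter on detection, 37 with series matrix values (14 higher and 23 lower, 37.8% higher in place of 49.3%), and between 30 and 45 with each array left out in turn. It stayed within 1.5 times of 67 in 8 further alternatives that kept all 6 arrays of the comparison. These ran from 45 without background correction to 84 with a trended robust prior. The genes behind these counts differed. Of the 67, 35 were still called without background correction, 41 with a normexp offset of 50 and 66 with cyclic loess. Fits to series matrix values of the 6 arrays alone gave counts outside 45 to 84 and are given below. In dataset A, with the array without a number taken as array 2, deviations of same-numbered arrays correlated at -0.18, -0.03 and 0.36. Not every array correlated best with its own number. Empty-vector array 2 correlated at 0.45 with cluster array 1, and empty-vector array 1 at 0.19 with the array without a number. The labels do not say which arrays shared a culture, and no fit used that matching. With series matrix values of the 6 arrays, 27 genes were called without and 7 with the replicate number as a block. In dataset B the single call became 7 without background correction, 8 with series matrix values and 0 to 2 with an array left out. It became 0 with the replicate block and without the miR-125a arrays. The interaction called 0 genes in both its alternatives too. Dim probes limit the folds: the median fold of the 67 genes was 2.09, and 1.63 without background correction. Why the counts moved was not tested. The count of genes by same-numbered pairs in dataset B was chosen after seeing the data.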
